A study of Homo sapiens with 16 samples.

Results

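The replication-dependent and linker histone genes were described in human A375 melanoma cells and in 2 catalase-transfected clones made from them. Members were all transcript clusters of the array whose gene symbol begins with H1-, H2AC, H2BC, H3C or H4C followed by a digit, or with an older HIST1H to HIST4H symbol. This gave 83 of 33297 clusters, of which 63 carried 1 symbol and 20 carried several symbols and are named by all of them. The 1-symbol members were 11 linker (H1), 14 H2A, 17 H2B, 8 H3 and 13 H4 clusters, and 3 of the 63 were not protein-coding genes, namely the antisense RNA H1-10-AS1 and the pseudogenes H1-9P and H2BC19P.

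H2A, H2B, H3 and H4 are the core histones around which DNA is wrapped in the nucleosome, and the linker histone H1 binds where the DNA enters and leaves it. Most of their genes stand in clusters, are transcribed during S phase when new chromatin is assembled, and give mRNAs that end in a stem-loop in place of a poly(A) tail. Some of them, H2BC12 and H2BC21 among them, have also been described with polyadenylated transcripts. Among the linker histones, H1-1 to H1-5 are the somatic replication-dependent forms, H1-10 is made outside S phase, and H1-6, H1-7 and H1-8 are germ cell forms.

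Whole-transcriptome arrays were made from 4 groups of 4 arrays each, stated to be biological replicates. G10 and A7 cells were A375 cells stably transfected with pcDNA3 that carried human catalase cDNA, and each was 1 clone obtained by clonal dilution, so an effect of catalase and a property of the clone cannot be told apart. PCDNA3 cells were A375 cells transfected with the empty vector, and A375 cells were the untransfected amelanotic melanoma line. The transfected cells (G10, A7 and PCDNA3) were kept in geneticin, and all cells were harvested at subconfluence. The control of the study was the average of the PCDNA3 and A375 means. Both clone comparisons share these control arrays. Values are log2 signals after robust multi-array average (RMA) normalization, an array has no read depth, and its precision here is limited by 4 arrays a group. Differences are on the log2 scale with the standard error (SE) of the limma fit, and a cluster passed the test at a Benjamini-Hochberg adjusted p under 0.05 over all 33297 clusters. The 95th percentile of 381 olfactory receptor clusters, 5.18, was taken as the level of genes that are not expressed. Differences of which 1 side lay below it are given as a lower bound beside the measured value.

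CAT, the catalase gene, had 8.51, 8.55, 7.74 and 8.27 in G10 cells, 9.02, 8.92, 9.12 and 9.02 in A7 cells, 8.51, 8.51, 8.53 and 8.71 in PCDNA3 cells and 8.64, 9.03, 8.64 and 8.62 in A375 cells. It did not pass the test against control in G10 (-0.38, SE 0.13, adjusted p = 0.0526) or in A7 (0.37, SE 0.13, adjusted p = 0.124), and it was lower in G10 than in A7 cells (-0.75, adjusted p = 0.00221). The mean CAT level was above control in A7 cells and below it in G10 cells, and which part of CAT the probes cover was not given in the sources used here. Of 12 measured melanoma lineage markers, 11 lay above the olfactory receptor level in every group. Against control, 5 of the 12 were higher and none lower in G10 (limma, 0 lower at an unadjusted p under 0.05), where 9.92% of all clusters were higher, and 3 were higher and 1 lower in A7, where 3.46% of all clusters were higher. The 5 in G10 were PMEL, TYRP1, PAX3, ERBB3 and AXL, so they are not genes of melanin synthesis and melanosomes alone. PMEL, a melanosome protein, rose in G10 by 2.46 and TYRP1, a melanin synthesis enzyme, by 1.58, while in A7 TYRP1 rose by 2.35, TYR, the rate-limiting enzyme of melanin synthesis, by 1.81 and MLANA, a melanosome protein, by 1.29. TYRP1 also passed as higher in PCDNA3 than in A375 cells (1.28), a call lost under 17 of 24 alternatives. Over the alternatives its difference ran from 0.94 to 2.22 in G10 and from 1.71 to 2.99 in A7. The A7 calls of TYR and MLANA were lost under 8 and 12 of 26 alternatives (limma, adjusted p up to 0.126 and 0.187). The receptor kinase AXL rose in G10 by 1.48 and fell in A7 by 0.66. SOX10, a neural crest transcription factor, did not pass in either clone, with -0.01 in G10 and 0.12 in A7. The part of these markers in the histone values was not tested. Of 13 markers of other cell types, 8 lay below that level in every group, among them the leukocyte marker PTPRC and the epithelial markers EPCAM and CDH1, and the other 5, above it in every group, were KRT14, KRT18, COL3A1, PDGFRB and DES. None of the 13 passed the test in G10 (limma, 1 at an unadjusted p under 0.05) and 1 did in A7 (LYZ, below that level in every group).

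The G10 arrays fell into 2 pairs, which bears on every histone value of that clone. Over all clusters, replicates 1 and 2 correlated at r = 0.9941, replicates 3 and 4 at r = 0.9918, and arrays of different pairs at r between 0.9844 and 0.9871. The median level of the 50 protein-coding 1-symbol members that lay above the olfactory receptor level in at least 1 group was 6.66 and 6.55 in G10 replicates 1 and 2 and 7.18 and 7.10 in replicates 3 and 4. In 42 of these 50 genes both of the G10 replicates 3 and 4 lay above both of replicates 1 and 2, which held for 25.8% of all clusters. The median difference between the pairs was 0.87 over the 50 genes and -0.01 over all clusters. It was 1.0 over 10 H4 genes, 0.92 over 13 H2B genes, 0.90 over 8 H3 genes, 0.74 over 11 H2A genes and 0.22 over 8 H1 genes. The highest pair difference was that of the H2B gene H2BC14 (1.91).

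**Figure D1:**
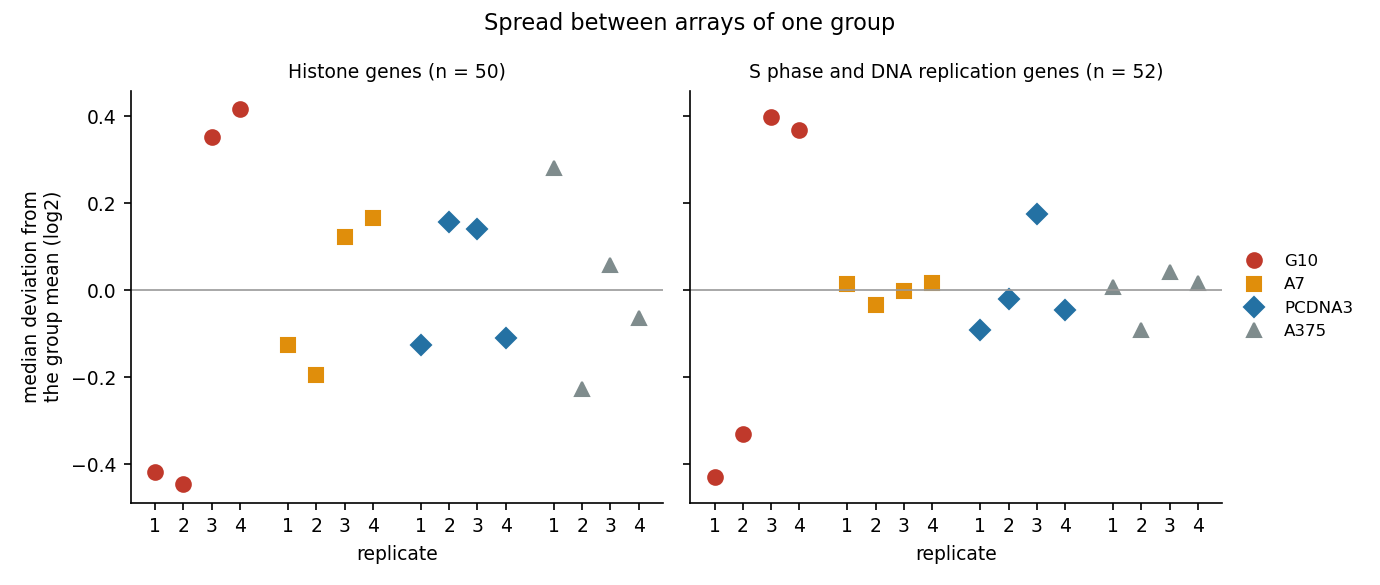
Median deviation of each array from its group mean, in log2 units, over 50 expressed protein-coding histone genes (left) and 52 S phase and DNA replication genes (right), for replicates 1 to 4 of G10, A7, PCDNA3 and A375 cells. G10 replicates 1 and 2 lie at -0.42 and -0.45 for the histone genes and replicates 3 and 4 at 0.35 and 0.42.

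The arrays of the other groups were closer together. The median SD of the 50 genes was 0.51 in G10, against 0.22 in A7, 0.23 in PCDNA3 and 0.24 in A375 cells, while over all clusters it was 0.18 in G10, 0.16 in A7, 0.16 in PCDNA3 and 0.15 in A375 cells. In A7 cells, replicates 1 and 2 lay below their group mean (median deviations -0.13 and -0.20) and replicates 3 and 4 above it (0.12 and 0.17). In A375 cells, replicate 1 was high (0.28) and replicate 2 low (-0.23).

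Genes of S phase and DNA replication moved with the histone genes across the G10 arrays. Of 52 measured, 49 had both G10 replicates 3 and 4 above both of replicates 1 and 2, as had 25.8% of all clusters. Their median pair difference was 0.73. Across the A7 arrays the S phase genes deviated from the group mean by a median of -0.03 to 0.02, although the histone genes ran from -0.20 to 0.17. The part of the S phase genes in the histone values was not tested.

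Not all histone clusters followed the pairs. G10 replicates 3 and 4 were below replicates 1 and 2 for 4 of the 50 genes (8.0%), which held for 26.2% of all clusters. The 4 genes were H2BC21 (-0.70), H2BC26 (-0.62), H2AC25 (-0.37) and H1-5 (-0.17, with its G10 arrays at the olfactory receptor level). The same direction was measured for several-symbol clusters of H4C15 and H4C14 (-0.97) and for 1 cluster of H2BC18 and H2BP1 (-0.69). A second cluster with these last symbols ran the other way, at 10.02, 10.13, 11.28 and 11.0 in G10 replicates 1 to 4. So did the brighter 1-symbol clusters of H4C14 and H4C15 (0.99). A brighter cluster shared by H2BC19P, H2BC20P and H2BC21 (0.75) ran against the 1-symbol H2BC21 cluster.

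In G10 cells against control, 3 members were higher and 15 lower. This was 21.7% of the 83 members, and 17.8% of all clusters passed the same test, 9.92% of them higher and 7.9% lower. The median member difference was -0.25, against -0.04 over all clusters. A difference below 0 was measured for 73 of the 83 members and for 19270 of the 33297 clusters. The counts rest on the G10 pairs. In fits that pool the spread over all groups, 46 members were lower and 3 higher without G10 replicates 3 and 4, with a median of -0.62. Without G10 replicates 1 and 2, 12 were lower and 9 higher, with a median of 0.03. All clusters moved less between these settings, with 10.3% lower and 10.8% higher in the one and 5.96% lower and 8.54% higher in the other. 5 members were lower in G10 in all 3 fits, namely H1-5, H2BC12, H3C7, H3C8 and a cluster shared by H2BC18, H2BP1 and H2BC21. The share of all clusters lower in all 3 fits was not counted.

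In A7 cells against control, 3 members were higher and 1 lower. This was 4.82% of the members, where 5.69% of all clusters passed, 3.46% higher and 2.23% lower. The median member difference was -0.18, against -0.02 over all clusters. Because the fit pools the spread over all groups, the wide G10 spread also enters comparisons without G10. More members passed in A7 when only the arrays compared were fitted, a fit for which the share of all clusters was not counted. In G10 against A7 cells, 3 members were higher and 12 lower (18.1% of the members), where 15.2% of all clusters passed, 7.83% higher and 7.38% lower. Between PCDNA3 and A375 cells no member passed the test in limma, with limma-trend or with array weights, where 0.123% of all clusters passed in limma. At an unadjusted p under 0.05, 3 members passed, which was 3.61% of them, against 12.6% of all clusters. The median member difference of PCDNA3 minus A375 was 0.12, against 0.01 over all clusters. Of the 83 members, 62 had a difference above 0, as had 17427 of the 33297 clusters. The array medians of the 50 protein-coding genes overlapped between the control lines. They were 7.09, 7.52, 7.62 and 7.39 in PCDNA3 cells and 7.60, 7.09, 7.65 and 7.49 in A375 cells.

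The linker histone H1-5 carried the greatest difference among the members. It had 5.28, 5.17, 5.03 and 5.08 in G10 cells, 9.15, 9.24, 9.48 and 9.49 in A7 cells, 10.06, 10.22, 10.42 and 10.04 in PCDNA3 cells and 10.49, 9.84, 10.21 and 10.07 in A375 cells. The 4 G10 arrays lay at the olfactory receptor level, and the arrays of G10, of A7 and of the control cells did not overlap. Against control, the G10 level of H1-5 was lower by at least 4.97, or at least 31.3-fold (difference as measured -5.03, SE 0.11, adjusted p = 2.95e-13). No other of the 33297 clusters had a more negative difference in that comparison. It fell also in A7, by less (-0.83, SE 0.11, adjusted p = 0.000302, 1.78-fold lower), and the G10 cells were below the A7 cells by at least 4.14 (measured -4.20, SE 0.13, adjusted p = 1.08e-11). All 3 calls held under every alternative that was run, with adjusted p up to 6.21e-10 for G10, 0.00257 for A7 and 7.3e-08 for G10 against A7.

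**Figure D2:**
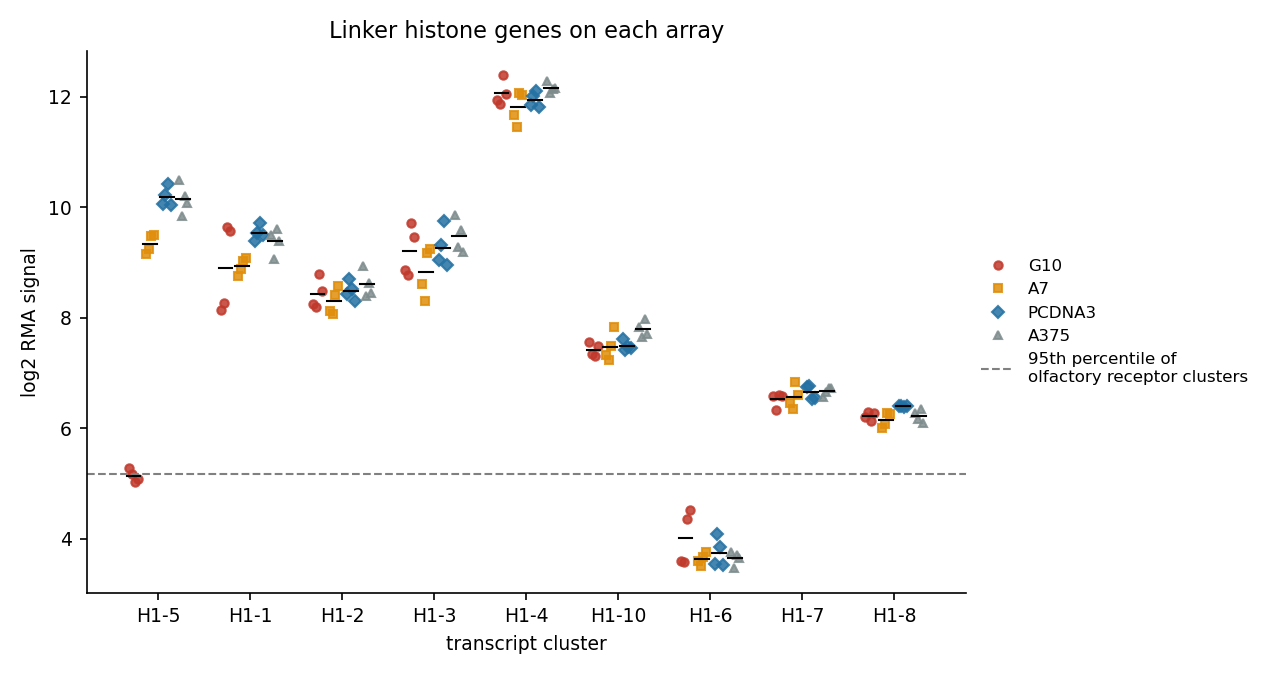
Log2 RMA signal of 9 protein-coding linker histone genes on each of 4 arrays of G10, A7, PCDNA3 and A375 cells. Black lines are group means and the dashed line is the 95th percentile of olfactory receptor clusters (5.18), at which the G10 values of H1-5 lie. The other somatic H1 genes overlap between groups.

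No other protein-coding linker histone passed the test in any comparison. H1-4, with the highest mean level of all 63 1-symbol members, had 11.95, 11.87, 12.39 and 12.04 in G10 cells, 11.68, 11.44, 12.06 and 12.04 in A7 cells, 11.85, 12.01, 12.11 and 11.81 in PCDNA3 cells and 12.28, 12.07, 12.13 and 12.15 in A375 cells. Its difference in G10 against control was 0.01 (SE 0.12, adjusted p = 0.975) and the groups overlapped. H1-2 differed by -0.12 (SE 0.14) and H1-3 by -0.17 (SE 0.22) in G10. H1-1 had 8.14, 8.27, 9.65 and 9.57 in G10 cells, with a difference against control of -0.56 (SE 0.24, adjusted p = 0.133), and its G10 spread followed the array pairs. In A7 cells these 4 genes had differences between -0.54 and -0.25, none past the test (adjusted p between 0.206 and 0.379). The fit pools the spread over all groups, so the G10 spread enters the SE of the A7 differences too. For H1-1 the SD was 0.81 in G10, 0.15 in A7, 0.14 in PCDNA3 and 0.23 in A375 cells.

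H1-10, the form made outside S phase, averaged 7.42 in G10, 7.47 in A7, 7.49 in PCDNA3 and 7.79 in A375 cells. The germ cell forms H1-7 and H1-8 averaged 6.53 and 6.23 in G10 cells, and H1-6 lay below the olfactory receptor level in every group. The antisense RNA H1-10-AS1 rose in G10 by 0.29 (SE 0.10, adjusted p = 0.0489), a call that was lost under 17 of 28 alternatives (adjusted p up to 0.447). Which strand its probes match was not given in the sources used here.

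The promoters of H1-5 and of H1-4 are shown because H1-5 fell in G10 and H1-4, the brightest H1 gene, did not pass the test. The bases before the RefSeq start of transcription (GRCh38.p14) are printed from 250 to 1 before the start, for H1-5 at chr6:27867589-27867838 on the minus strand and for H1-4 at chr6:26156079-26156328 on the plus strand. Capitals mark AAACACA (the H1 box), CCAAT and TATANA, on either strand.
H1-5: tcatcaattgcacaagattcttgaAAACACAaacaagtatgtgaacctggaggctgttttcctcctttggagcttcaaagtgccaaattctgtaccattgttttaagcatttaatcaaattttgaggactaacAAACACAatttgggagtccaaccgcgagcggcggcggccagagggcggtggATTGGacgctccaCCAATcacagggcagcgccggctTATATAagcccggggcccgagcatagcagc
H1-4: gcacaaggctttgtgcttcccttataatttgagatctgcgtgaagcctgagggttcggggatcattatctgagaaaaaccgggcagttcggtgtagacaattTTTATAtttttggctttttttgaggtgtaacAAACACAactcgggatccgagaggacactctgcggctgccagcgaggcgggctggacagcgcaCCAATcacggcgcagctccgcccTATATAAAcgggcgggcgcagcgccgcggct

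In H1-5, AAACACA began 117 and 226 bases before the start, CCAAT 53 bases before it (and 66 bases before it on the other strand) and TATANA 30 bases before it. In H1-4, AAACACA began 117 and CCAAT 54 bases before the start. TATANA was found there 29 and 31 bases before the start on the gene's strand, and 31 and 148 bases before it on the other strand, and all but the last of these matches overlap each other. Promoters were found for 55 of the 63 1-symbol members. AAACACA was in 7 of 9 H1 promoters, in none of the 13 H2A, 16 H2B, 6 H3 and 11 H4 promoters, and in 4.95% of 27305 promoters of all genes. CCAAT was in 83.6% of the histone promoters and 33.0% of all, and TATANA in 85.5% and 18.3%. A match is a description of the letters and not a measured binding site.

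None of the nearest members of H1-5 along chromosome 6 passed the test in G10. Chromosome 6 holds 49 of the 63 1-symbol members, and H1-5 is the 44th of them in order. H2AC15 and H2AC16 are the members before it and H3C11 and H4C13 the members after it. In G10 against control, H2AC15 differed by -0.24 (SE 0.26, adjusted p = 0.628) and H3C11 by -0.11 (SE 0.09, adjusted p = 0.492). H2AC16 and H4C13 lay below the olfactory receptor level in every group. Of the 49, 1 was higher and 7 lower in G10 (16.3%, where 17.8% of all clusters passed), and 1 was higher and 1 lower in A7 (4.08%, where 5.69% of all clusters passed). Of the 8 1-symbol members of chromosome 1, 2 were lower in G10 (25%) and 1 was higher in A7 (12.5%), beside the same shares of all clusters.

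**Figure D3:**
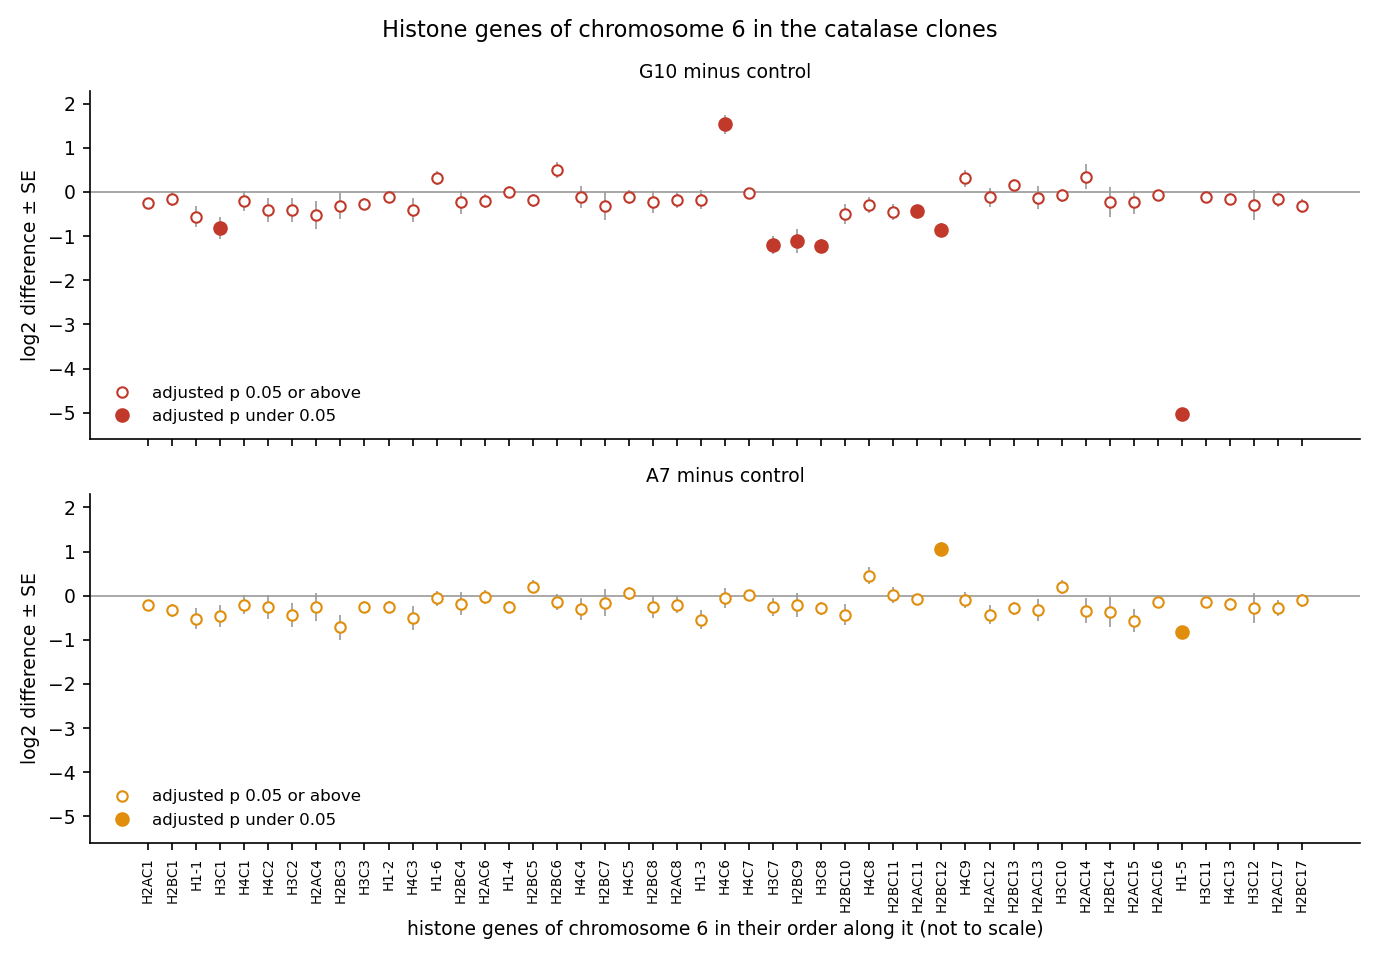
Log2 difference with its SE for 49 histone genes of chromosome 6, in their order along it and not to scale, in G10 against control (above) and in A7 against control (below). Filled points passed the test at an adjusted p under 0.05. In G10 the points of H3C7, H2BC9 and H3C8 lie side by side between -1.22 and -1.11, that of H4C6 at 1.53 and that of H1-5 at -5.03.

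3 neighbouring core histone genes fell in G10, H3C7, H2BC9 and H3C8, at places 27, 28 and 29 of that order. H3C8, an H3 gene, had 5.38, 5.30, 6.31 and 6.03 in G10 cells, 6.63, 6.79, 6.69 and 6.65 in A7 cells, 7.09, 7.27, 7.24 and 6.93 in PCDNA3 cells and 6.80, 6.66, 6.92 and 6.88 in A375 cells. All G10 arrays lay below all others. H3C8 fell in G10 against control by 1.22 (SE 0.15, adjusted p = 3.65e-05) and was lower in G10 than in A7 cells by -0.93 (SE 0.18, adjusted p = 0.00148).

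H3C7, also an H3 gene, had 6.14, 5.87, 6.92 and 7.02 in G10 cells, 7.09, 7.33, 7.64 and 7.66 in A7 cells, 7.22, 7.94, 7.95 and 7.68 in PCDNA3 cells and 7.86, 7.42, 7.73 and 7.63 in A375 cells. It fell in G10 by 1.19 (SE 0.21, adjusted p = 0.000638), with no overlap between the G10 arrays and the others. H2BC9, the H2B gene between them, had 8.23, 7.68, 9.56 and 9.12 in G10 cells, 9.40, 9.16, 9.96 and 9.70 in A7 cells, 10.08, 10.10, 9.97 and 9.56 in PCDNA3 cells and 9.95, 9.34, 9.58 and 9.49 in A375 cells. Its G10 replicate 3 overlapped the control arrays. It fell by 1.11 (SE 0.27, adjusted p = 0.00821), and the call was lost under 3 of 28 alternatives (adjusted p up to 0.23). None of the 3 genes passed in A7, where their differences were -0.29, -0.25 and -0.20.

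H4C6, an H4 gene at place 25, went the other way. It had 5.44, 6.07, 6.81 and 6.87 in G10 cells, 4.47, 4.37, 5.25 and 4.74 in A7 cells, 4.79, 4.99, 4.94 and 4.95 in PCDNA3 cells and 4.54, 4.57, 4.76 and 4.58 in A375 cells. All G10 arrays lay above all others. H4C6 rose in G10 by at least 1.12 (measured 1.53, SE 0.22, adjusted p = 0.000129), and it was above A7 by at least 1.10 (measured 1.59, SE 0.25, adjusted p = 0.000375). These calls held under every alternative. H4C7 at place 26, between H4C6 and H3C7, lay below the olfactory receptor level in every group.

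The promoters of H4C6 and H3C7 are shown as those of 2 near neighbours that changed in opposite directions in G10. They are the bases from 250 to 1 before the RefSeq start (GRCh38.p14), at chr6:26240143-26240392 on the plus strand for H4C6 and at chr6:26250636-26250885 on the minus strand for H3C7, with CCAAT and TATANA on either strand in capitals.
H4C6: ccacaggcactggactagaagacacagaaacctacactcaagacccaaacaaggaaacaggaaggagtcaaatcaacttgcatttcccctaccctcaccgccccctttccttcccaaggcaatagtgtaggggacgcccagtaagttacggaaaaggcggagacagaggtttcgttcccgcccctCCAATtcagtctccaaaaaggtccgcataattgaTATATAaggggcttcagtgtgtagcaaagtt
H3C7: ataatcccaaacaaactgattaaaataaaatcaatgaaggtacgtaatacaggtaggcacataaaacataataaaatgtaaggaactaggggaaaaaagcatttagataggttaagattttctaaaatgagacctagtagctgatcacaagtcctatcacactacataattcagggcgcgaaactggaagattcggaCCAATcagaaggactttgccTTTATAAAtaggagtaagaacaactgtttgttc

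Both held TATANA 31 bases before the start on the gene's strand, and CCAAT 65 bases before it in H4C6 and 53 bases before it in H3C7. CCAAT was in 3 of 11 H4 promoters and in 6 of 6 H3 promoters.

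H2BC12, an H2B gene at place 34, changed in opposite directions in the clones. It had 7.61, 7.67, 7.84 and 8.08 in G10 cells, 9.91, 9.96, 9.58 and 9.39 in A7 cells, 9.43, 8.97, 8.65 and 8.64 in PCDNA3 cells and 8.35, 8.64, 8.27 and 8.24 in A375 cells. All G10 arrays were below all others, and the A7 arrays were above the controls apart from PCDNA3 replicate 1, which overlapped them. H2BC12 fell in G10 by 0.85 (SE 0.15, adjusted p = 0.000884) and rose in A7 by 1.06 (SE 0.15, adjusted p = 0.000457). G10 cells were lower than A7 cells by -1.91 (SE 0.18, adjusted p = 1.84e-06), 3.77-fold. The PCDNA3 cells were above the A375 cells by 0.55, which did not pass (adjusted p = 0.211). A cluster shared by H2BC12, H2BC12L, H2BC17 and H2BC5 was much brighter (group means from 11.63 to 11.94) and did not pass the test, with -0.15 in G10 and -0.23 in A7, so the probes that carry this symbol disagree.

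The promoter of H2BC12 is shown as that of the member with opposite changes. It is printed from 250 to 1 before the RefSeq start (GRCh38.p14, chr6:27146859-27147108, minus strand), and capitals mark CCAAT and TATANA, with the octamer ATTTGCAT, on either strand.
H2BC12: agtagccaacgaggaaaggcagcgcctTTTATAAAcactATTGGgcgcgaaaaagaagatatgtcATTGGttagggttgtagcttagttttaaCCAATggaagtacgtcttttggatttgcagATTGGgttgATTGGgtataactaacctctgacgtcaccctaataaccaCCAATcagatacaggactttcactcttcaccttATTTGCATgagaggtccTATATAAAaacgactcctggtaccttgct

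The octamer began 46 bases before the start, and CCAAT occurred 6 times on the 2 strands. ATTTGCAT was in 13 of 16 H2B and 10 of 13 H2A promoters, in none of the 9 H1, 6 H3 and 11 H4 promoters, and in 1.66% of all promoters. Most H2B promoters held the octamer, and its part in the H2BC12 values was not tested.

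**Figure D4:**
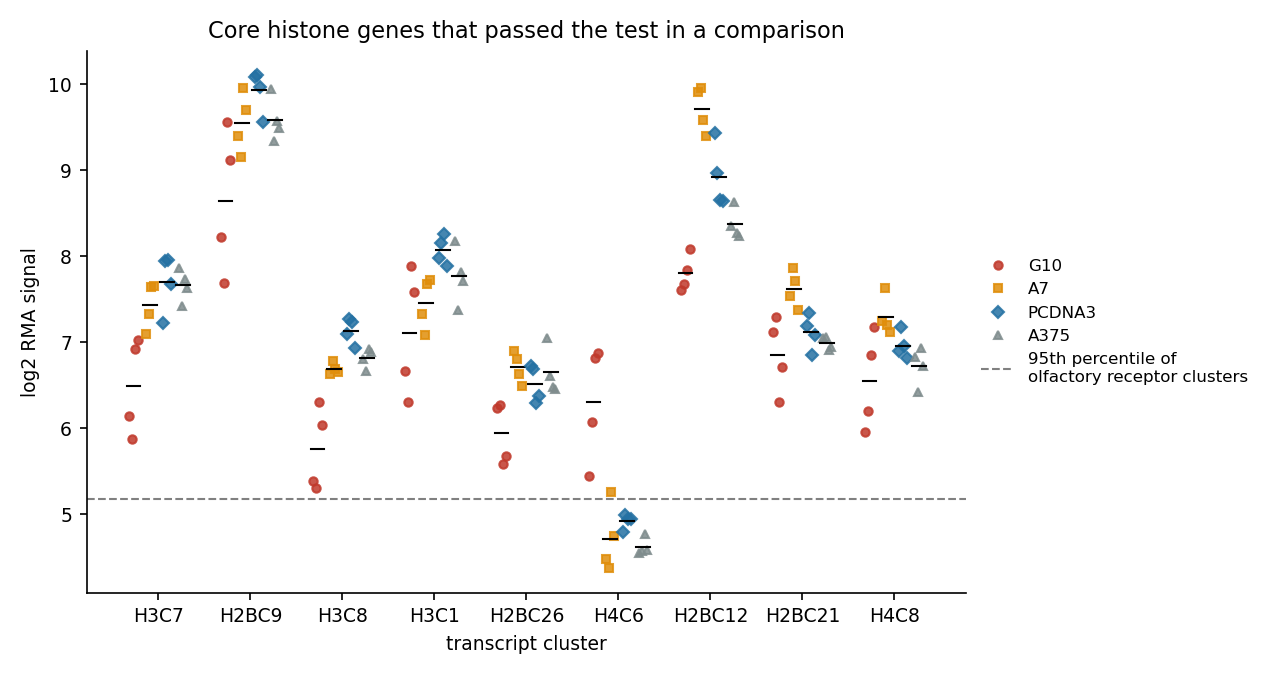
Log2 RMA signal of 9 core histone genes that passed the test in at least 1 comparison, on each of 4 arrays of G10, A7, PCDNA3 and A375 cells, with group means as black lines and the 95th percentile of olfactory receptor clusters dashed. H3C7 and H3C8 are lowest in G10, H4C6 is highest in G10, and H2BC12 is lowest in G10 and highest in A7.

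Other core members changed by less. H2BC21, an H2B gene of chromosome 1, had 7.12, 7.29, 6.30 and 6.71 in G10 cells, 7.54, 7.87, 7.71 and 7.37 in A7 cells, 7.19, 7.33, 6.85 and 7.08 in PCDNA3 cells and 7.05, 7.06, 6.91 and 6.95 in A375 cells. It rose in A7 by 0.57 (SE 0.15, adjusted p = 0.0398), with all A7 arrays above all others, and the call was lost under 13 of 26 alternatives (adjusted p up to 0.149). The several-symbol clusters that carry H2BC21 did not pass in A7. The brighter, shared with H2BC19P and H2BC20P, had -0.12 (limma, adjusted p = 0.773). The dimmer, shared with H2BC18 and H2BP1, had 0.14 (limma, adjusted p = 0.523). H2BC26, also of chromosome 1, had 6.23, 6.27, 5.58 and 5.68 in G10 cells and between 6.30 and 7.04 on the control arrays. It fell in G10 by 0.64 (SE 0.15, adjusted p = 0.00711) and its A7 value was 0.12 above control. The H3 gene H3C1 fell in G10 by 0.81 (SE 0.24, adjusted p = 0.0296), the H2A genes H2AC11 and H2AC25 by 0.42 and 0.36. H3C1, H2AC11 and H2AC25 had G10 arrays that overlapped the controls, and their calls were lost under 7, 4 and 12 of 28 alternatives.

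H4C8 (-0.75, adjusted p = 0.0253) was lower and H2BC6 (adjusted p = 0.0497) higher in G10 than in A7 cells, and neither passed against control. H2BC6 lay below the olfactory receptor level in every group, so its measured difference is no size of a change. The pseudogene H2BC19P, set between the clones, was lower in G10 by at least 0.11 (measured -0.80, adjusted p = 0.0118).

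The several-symbol clusters cannot be assigned to 1 gene. A cluster of H2BC18, H2BP1 and H2BC21 had 7.23, 7.44, 7.06 and 7.19 in G10 cells, 8.28, 8.15, 7.88 and 7.87 in A7 cells, 8.07, 7.91, 8.10 and 7.97 in PCDNA3 cells and 7.94, 7.75, 7.81 and 7.70 in A375 cells. It fell in G10 by 0.68 (SE 0.09, adjusted p = 9.14e-05), with all G10 arrays below all others. The dimmer of the clusters of H2BC18 and H2BP1 fell in G10 by 0.74 (SE 0.16, adjusted p = 0.00307), and the brighter had -0.33 (SE 0.19, adjusted p = 0.306). 4 clusters of H3C13, H3C15 and H3C14, members of the chromosome 1 group, fell in G10 by 0.59 to 0.69 (adjusted p between 0.0252 and 0.0437), and their G10 replicates 3 and 4 overlapped the controls. These calls were lost under 5, 13, 17 and 5 of 28 alternatives (limma, adjusted p up to 0.75). A cluster of H3C11 and H3C6 passed as higher in G10 and in A7, but lay below the olfactory receptor level in every group. Clusters of H4C15 and H4C14 were lower in G10 than in A7 cells (-1.0, SE 0.21, adjusted p = 0.00282), and in A7 they had 0.61 above control (adjusted p = 0.0586). The brighter 1-symbol clusters of H4C14 and H4C15 did not pass, with -0.38 in G10 against A7 (limma, adjusted p = 0.439). In A7 against control they had -0.16, so the clusters that carry these symbols disagree.

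4 pairs of clusters held identical values on all arrays and so were no separate measurements. They were pairs of the H3C13, H3C15 and H3C14 clusters, of the H4C15 and H4C14 clusters and of the H2AC19, H2AC21, H2AC20 and H2AC18 clusters, and the pair of 1-symbol clusters H4C14 and H4C15. Counted once, 79 members remained, of which 14 were lower in G10. Histone paralogs are nearly identical in their coding sequence, and which of them the probes share was not given in the sources used here.

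The brightest 1-symbol gene of each core family did not pass the test in any comparison. H2BC14 had 10.42, 10.61, 12.65 and 12.2 in G10 cells and between 10.93 and 12.37 on the control arrays. H4C3 had 9.25, 9.30, 10.58 and 10.61 in G10 cells and between 9.61 and 10.89 on the control arrays, and H3C2 had 9.05, 8.91, 10.52 and 10.27 in G10 cells and between 9.63 and 10.56 on the control arrays. In these 3 genes the lower G10 pair was below all control arrays. The upper pair was within the control range, apart from H2BC14 in G10 replicate 3, which was above it. H2AC20, the brightest H2A gene, and H2AC21 differed in G10 by -0.41 and -0.59 (adjusted p = 0.1 and 0.0529).

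Proteins that make, process and deposit histones were listed with earlier results of these data known, and their counts are a description. Of 29 genes of histone transcription and mRNA end formation, 4 were higher and 3 lower in G10 and 2 higher in A7. These shares were 24.1% in G10 and 6.9% in A7, where 17.8% and 5.69% of all clusters passed. NPAT, the coactivator of histone gene transcription in S phase, had 7.17, 7.46, 7.79 and 7.50 in G10 cells, 8.63, 8.89, 8.36 and 8.36 in A7 cells, 8.66, 8.38, 8.56 and 8.41 in PCDNA3 cells and 8.74, 8.69, 8.66 and 8.78 in A375 cells. It fell in G10 by 1.13 (SE 0.12, adjusted p = 5e-06), with all G10 arrays below all others. The cap-binding subunit NCBP2 rose by 0.59 and TUT7, a uridylyltransferase that acts on histone mRNA, by 0.48, while LSM10, a subunit of the U7 particle that cuts histone mRNA ends, fell by 0.35. In A7, ERI1, an exonuclease of histone mRNA, rose by 0.46.

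Of 34 histone chaperones, import and assembly factors, 2 were higher and 8 lower in G10, and 2 higher and 1 lower in A7. These shares were 29.4% in G10 and 8.82% in A7, where 17.8% and 5.69% of all clusters passed. ASF1B, a chaperone of H3 and H4 in proliferating cells, had 8.59, 8.71, 9.60 and 9.52 in G10 cells, 9.98, 9.89, 10.0 and 9.94 in A7 cells, 9.91, 9.94, 10.28 and 10.08 in PCDNA3 cells and 9.93, 9.91, 10.21 and 10.11 in A375 cells. It fell in G10 by 0.94 (SE 0.16, adjusted p = 0.000672) in all 4 arrays. NASP, which binds linker histones and H3, fell by 0.52 and ANP32E, a chaperone of H2A.Z, by 0.56, and DAXX, a chaperone of H3.3, rose by 0.44. In A7, ASF1A fell by 0.51.

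Of 52 S phase and DNA replication genes, 1 was higher and 21 lower in G10, with a median of -0.40, and 1 was higher and none lower in A7, with a median of -0.17 (limma, 6 lower at an unadjusted p under 0.05). These shares were 42.3% in G10 and 1.92% in A7, where 17.8% and 5.69% of all clusters passed. The replicative helicase subunit MCM6 fell by 0.76 and the polymerase subunit POLA2 by 0.83. Of 12 measured histone variants outside the rule, 2 were lower in G10, H2AX (-0.56) and H2AZ2 (-0.52), and 1 was higher in A7, MACROH2A2. The call of H2AX was lost under 5 of 28 alternatives (limma, adjusted p up to 0.514) and that of H2AZ2 under 1. For the variants the shares were 16.7% in G10 and 8.33% in A7. MACROH2A2 averaged 5.12 in G10, 6.80 in A7, 5.44 in PCDNA3 and 5.35 in A375 cells and rose in A7 by 1.41 (SE 0.12, adjusted p = 2.13e-06).

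Of 31 measured genes of the chromosome 6 histone region that are not histones, 14 were higher and none lower in G10 (limma, 0 lower at an unadjusted p under 0.05), with a median of 0.25. This was 45.2% higher, where 9.92% of all clusters were higher. In A7, 3 were higher (9.68%, where 3.46% of all clusters were higher). 10 of the 31 lay below the olfactory receptor level in every group. The zinc finger gene ZSCAN16 rose in G10 by at least 1.16 (measured 1.92, SE 0.10, adjusted p = 3.16e-09) and ZKSCAN4, also a zinc finger gene, by 0.89.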

How the data were processed

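RNA of 16 samples was hybridised, 1 sample to each Affymetrix Human Gene 1.0 ST array. The deposited values are log2 signals per transcript cluster, which the authors background-corrected, normalized and summarized by RMA. The sources used here state neither the labelling primers nor a genome build of the probes. Symbols came from the platform annotation, in which 19460 of 33297 clusters have 1 symbol, 1754 several and 12083 none. Genes on chromosomes were ordered by RefSeq genes.

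Means of the 4 groups were fitted with limma 3.58.1 in R 4.3.3 to all arrays and clusters, without a replicate block, with Benjamini-Hochberg adjustment over the whole table. The contrasts were G10 and A7 against the average of PCDNA3 and A375, G10 against A7, and PCDNA3 against A375. The fit was tested on simulated data drawn with 1 spread per cluster for all groups. These held neither the wider G10 spread nor the G10 array pairs, so they do not test the fit under those conditions. Deviations from the group mean on arrays of the same replicate number correlated at -0.19 to 0.30 between groups. Of 24 such pairs, 6 were above 0.1, and in 6 the same number was the best match. The check compared single numbers, so it did not test for a split of replicates 1 and 2 from 3 and 4 shared between groups. Members and lists were chosen with earlier results of these data known. The genes named were all 1-symbol linker histones, up to 10 rises and falls per comparison, the 2 brightest genes of each core family, up to 4 genes per list and comparison, and CAT, and several-symbol clusters that passed were added. 30 alternatives were run: other controls, scalings, variance models, filters and limits, a replicate block, each array left out, and 3 chosen after seeing the data (identical clusters counted once and either pair of G10 arrays left out).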

Additional observations from a re-analysis of the deposited data

Results flagged for a closer look

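15 named histone clusters differed between the clones by the G10 against A7 comparison (limma, adjusted p under 0.05). The measured differences of G10 minus A7 were -4.20 for H1-5, -1.91 for H2BC12, 1.59 for H4C6, -1.0 for each of the H4C15 and H4C14 clusters with identical values, -0.97 for the dimmer H2BC18 and H2BP1 cluster, -0.94 for H3C7, -0.93 for H3C8, -0.81 for the H2BC18, H2BP1 and H2BC21 cluster, -0.80 for H2BC19P, -0.77 for H2BC21, -0.76 for H2BC26, -0.75 for H4C8, 0.65 as measured for H2BC6, which lay below the olfactory receptor level in every group so that this is no size of a change, and 0.40 for H1-10-AS1.

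In 12 of 328 groups of 4 arrays looked at, 1 array stood apart from the other 3, and chance gives this in about 1 in 20 groups. Among histone clusters these were H1-7 in G10 replicate 2 (6.33, the others from 6.59 to 6.60), H4C6 in A375 replicate 3 (4.76, the others from 4.54 to 4.58), H2BC6 in A375 replicate 1 (3.69, the nearest of the others 4.11), H2BC14 in A375 replicate 2 (10.93, the others from 11.58 to 11.66), the dimmer H2BC18 and H2BP1 cluster in PCDNA3 replicate 2 (7.23, the others from 7.47 to 7.51) and the H3C11 and H3C6 cluster in A7 replicate 4 (3.41, the others from 3.73 to 3.76). Among other genes these were CAT in PCDNA3 replicate 4 (8.71) and A375 replicate 2 (9.03), ORC1 in PCDNA3 replicate 3 (9.23) and A375 replicate 2 (8.45), HFE in PCDNA3 replicate 4 (7.27) and NAP1L4 in A375 replicate 2 (9.41).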

How the results depend on the processing

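Of 37 calls of named histone clusters, 13 held under every alternative, 24 were lost under at least 1 and none changed direction. The calls of H1-5 in 3 comparisons, H2BC12 in 3 and H4C6 in 2 were among those that held. Leaving out 1 array at a time gave 10 to 23 members lower in G10 (15 in all), with 10 without G10 replicate 1 and 23 without replicate 3 or 4, 2 to 3 higher in G10, 1 to 5 higher in A7, and between the clones 1 to 3 higher and 11 to 14 lower in G10. Without A7 replicate 1, 2 or 3, 1 member was higher in A7, and without A7 replicate 2, 1 was higher in G10 than in A7. Array weights gave 36 lower in G10, 5 higher in A7 and 27 lower in G10 than in A7. G10 replicates 3 and 4 had the lowest weights of the arrays, 0.387 and 0.457. Without these replicates 46 were lower in G10, where 10.3% of all clusters were lower, and 38 were lower than in A7. Without G10 replicates 1 and 2, 9 were higher in G10, where 8.54% of all clusters were higher, and 16 were higher than in A7. A375 cells alone as control gave 9 lower in G10, and PCDNA3 cells alone gave 1 higher in A7. Only the arrays compared gave 6 higher and 4 lower in A7. An adjusted p under 0.001 gave 5 lower in G10, 1 higher in A7, and between the clones 1 higher and 3 lower in G10. Members with 1 symbol alone gave 9 lower in G10. The replicate block gave 3 higher and 14 lower in G10, 3 higher and 1 lower in A7, and between the clones 2 higher and 12 lower in G10. Shares of all clusters were counted for the main fit and, in G10 against control, for the fits without a G10 pair. For the other fits they were not counted, so these shifts cannot be called particular to the histones. The cause of these shifts was not tested. Members below the olfactory receptor level have only a bound on that side.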
